A study of Homo sapiens with 36 samples.

Results

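RNA-seq compared clones of the line H446 without and with NEUROD1. H446 was derived from a small-cell lung cancer and belongs to its SCLC-N subtype, in which NEUROD1 is high. Of the 36 libraries of the series, the 18 grown with the solvent DMSO for 24 h were used: 9 from NEUROD1 knockout clones 12, 15 and 2-1, and 9 from control clones 3, 10 and 13, which carry a non-targeting guide RNA and are labelled WT. The other 18 libraries are of the same clones with the BET bromodomain inhibitor JQ1 (1 µM, 24 h); they entered the filter on low counts and 1 comparison of levels, and no test. All clones were kept in serum-supplemented RPMI, and each gave 3 biological replicates. The 3 knockout clones come from the same guide (#297), so an effect of NEUROD1 loss and any other effect of that guide cannot be told apart, and each clone descends from a single edited cell. Libraries from 1 clone are not independent, so the comparison is of 3 knockout with 3 control clone means of log2(normalized count + 1). A normalized count is a read count divided by 1 size factor per library; it is corrected for depth and not for gene length. Values of the clones are means of normalized counts over 3 libraries, always in the order 12, 15 and 2-1 for the knockout clones and 3, 10 and 13 for the control clones. Log2 fold changes are knockout over control, with their standard error (SE) and the p-value of limma's moderated test, adjusted by the Benjamini-Hochberg method over 15819 genes, with a threshold of 0.05.

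NEUROD1 is a basic helix-loop-helix (bHLH) factor that binds E-boxes as a dimer with an E protein and activates genes of neuronal and endocrine differentiation. In small-cell lung cancer it marks one of the neuroendocrine subtypes. Cells of this cancer can also take on non-neuroendocrine states with epithelial, basal or mesenchymal transcripts.

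The libraries held 13918686 to 17115449 reads (median 15926136) in knockout clones and 13743706 to 17608539 (median 15892252) in control clones. These are reads in the 19014 genes listed and not all reads sequenced. No library was a copy of another: the spread among those of 1 clone exceeded that of counting alone (chi-square over its degrees of freedom, 2.16 or more). None of the 18 stood apart from the others of its clone (r of 0.983 to 0.986 on the log2 scale). The label of the line was checked against its markers. The 10 neuroendocrine markers summed to 8657 to 16578 normalized counts in the knockout clones and to 32576 to 43440 in the control clones. Of the markers of other cells, the lung genes SFTPA1 and CEACAM6 were listed at 0 in all 18 libraries, and the 7 alveolar and secretory markers in the table summed to 14.1 to 75.4 in knockout and 11.7 to 17.9 in control clones. The 4 blood cell markers in the table summed to 236.7 to 911.3 in knockout and to 24.9 to 73.4 in control clones, nearly all of it from CD68, and their part in the results was not tested. Because RNA was taken from whole cultures, fewer cells of a kind and less RNA per cell cannot be told apart.

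Factors of the bHLH family bind E-boxes, and 3 such words were searched on both strands of the 250 bases before the start of each gene (RefSeq, GRCh38.p14). The word CAGATG stood in 12.2% of 27305 promoters. In 13.8% of promoters the word CAGCTG was found, and a promoter may hold several words. The share with the word CAGGTG was 17.5%, and 36.9% held at least 1 of the 3. Of the 12 falls of smallest p, 8 had a window that was searched, and 4 of these held a word. The other falls were not searched, which does not show that they lack a window or a word. Of the 12 rises of smallest p, 11 had a window that was searched, and the window of IL6R alone held one. A match is a description of the letters and not a binding site. CAGATG stood in 0 of the 8 windows of the falls, and the windows of KCNJ6, ATP2B2, CA10 and NTRK3 held none of the 3 words. The 4 windows of falls that held a word are shown 5′ to 3′ on the strand of the gene, with the word in capitals. They lie at chr12:55019724-55019973 (NEUROD4, plus strand), chr12:112791498-112791747 (RPH3A, plus), chr18:43277491-43277740 (SYT4, minus) and chr1:37034516-37034765 (GRIK3, minus).
NEUROD4: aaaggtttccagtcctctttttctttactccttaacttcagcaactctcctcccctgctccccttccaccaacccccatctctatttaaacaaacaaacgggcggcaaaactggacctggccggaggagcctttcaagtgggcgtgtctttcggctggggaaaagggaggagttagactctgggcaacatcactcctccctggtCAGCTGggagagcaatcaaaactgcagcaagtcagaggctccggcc
RPH3A: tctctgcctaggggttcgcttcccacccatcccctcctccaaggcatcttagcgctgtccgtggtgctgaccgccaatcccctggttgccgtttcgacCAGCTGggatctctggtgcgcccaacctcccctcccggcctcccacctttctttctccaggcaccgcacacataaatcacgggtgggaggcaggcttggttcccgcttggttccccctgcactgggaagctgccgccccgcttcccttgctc
SYT4: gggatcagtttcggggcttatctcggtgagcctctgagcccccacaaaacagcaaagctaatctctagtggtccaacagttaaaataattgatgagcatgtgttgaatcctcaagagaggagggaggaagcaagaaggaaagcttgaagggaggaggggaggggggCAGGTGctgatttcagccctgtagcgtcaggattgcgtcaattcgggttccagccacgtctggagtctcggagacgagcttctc
GRIK3: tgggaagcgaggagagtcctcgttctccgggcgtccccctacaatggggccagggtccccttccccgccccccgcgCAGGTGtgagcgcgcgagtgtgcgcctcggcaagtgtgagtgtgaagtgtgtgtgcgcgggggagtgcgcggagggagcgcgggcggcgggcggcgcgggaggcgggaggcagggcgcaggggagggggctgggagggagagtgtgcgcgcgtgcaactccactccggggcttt
NEUROD4 and RPH3A each held 1 CAGCTG, and SYT4 and GRIK3 each held 1 CAGGTG.

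The comparison of genotypes asks which transcripts differ when NEUROD1 is lost from these cells. Of 15819 genes tested, 1985 passed the threshold (12.5%), 1000 of them higher (6.32%) and 985 lower (6.23%) in knockout clones. Many of the differences were large: 362 genes were at least 8-fold higher and 373 at least 8-fold lower, and at 64-fold the numbers were 89 and 115. The median log2 fold change over all genes was 0.01. In 1917 of the 1985 genes the 9 knockout libraries did not overlap the 9 control libraries, whereas this held for 20.6% of all genes tested. Clone means did not overlap in 34.4% of all genes tested. Protein-coding genes made up most of the calls (7.31% higher and 6.74% lower of 12929), while of 1068 lincRNA and antisense genes 3.09% were higher and 4.59% lower. Across genes, the clone means of 2 knockout clones correlated at 0.918 to 0.933, those of 2 control clones at 0.953 to 0.974 and those of a knockout and a control clone at 0.810 to 0.848. Leaving out 1 clone left between 906 (without control clone 10) and 2033 (without knockout clone 12) genes past the threshold; it was 1119 without control clone 13, 1216 without control clone 3, 1531 without knockout clone 15 and 1863 without knockout clone 2-1. None of the 1985 changed sign in these fits.

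**Figure D1:**
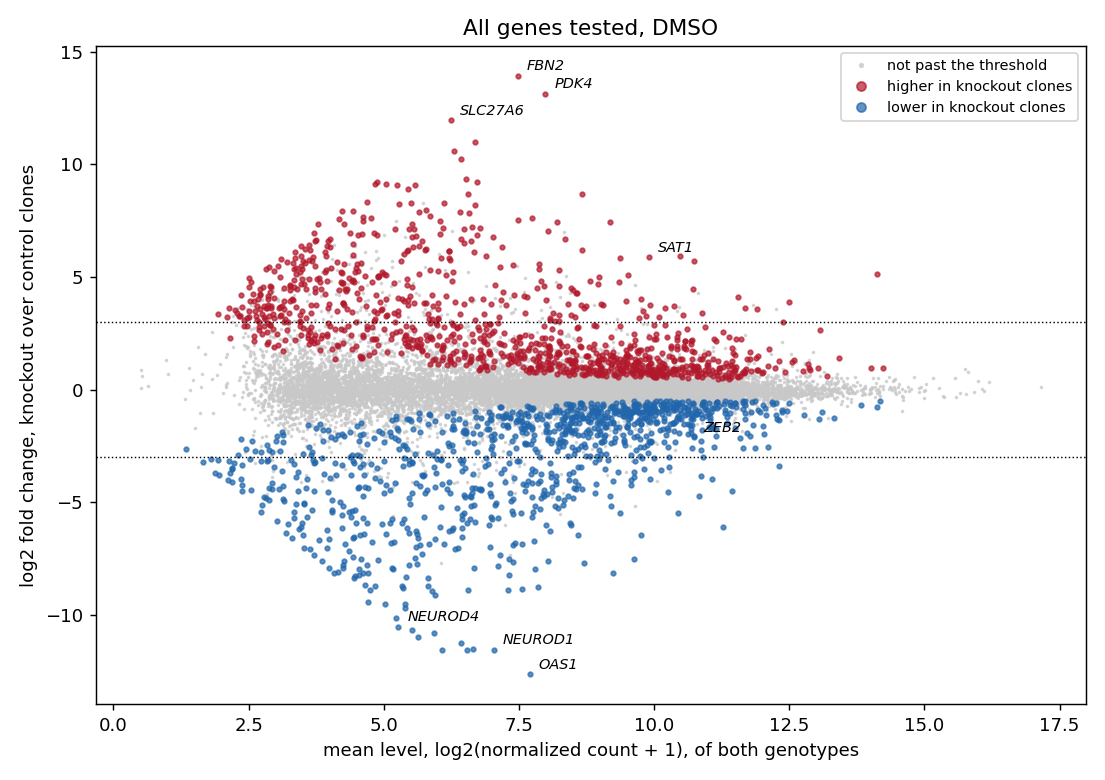
Level (x axis, mean of the genotypes on the log2(normalized count + 1) scale) and log2 fold change, knockout over control clones (y axis), of the 15819 genes tested with DMSO. Red points are the 1000 genes higher and blue points the 985 genes lower in knockout clones at adjusted p under 0.05; dotted lines mark 8-fold, and the points reach about as far above 0 as below it.

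The targeted gene was nearly silent in every knockout clone. NEUROD1 had 0.360, 0 and 5.25 in knockout clones, against 6337, 5328 and 6329.8 in control clones (log2 fold change -11.55, SE 0.66, adjusted p = 0.000187). The lowest, median and highest libraries were 0, 0 and 6.60 in knockout clones, against 5134, 6209 and 6523 in control clones. The groups lay far apart, and clone 2-1 held most of the few knockout reads. By length-scaled level (FPKM), NEUROD1 ranked 18570th of 19014 genes in knockout clones and 635th in control clones.

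Several other neural bHLH and zinc finger factors fell too. Of 23 factors and partners tested, the targeted NEUROD1 among them, 11 were lower and 2 higher. The shares were 47.8% and 8.70%, against 6.23% and 6.32% of all genes, with a median log2 fold change of -2.56. NEUROD4, a related factor of neuronal differentiation, had 0, 0 and 0 in knockout clones, against 1624, 1280.1 and 1561 in control clones, at least 4384-fold lower (0 reads in knockout and 13403 in control clones). Such bounds set a group without reads at 3 reads, summed over its 9 libraries. They and the read ratios given below pool the 3 clones of a genotype, so a single clone can lie outside them. ST18, a zinc finger factor of the MYT family, had 0, 0 and 0 in knockout clones, against 640.3, 725 and 692 in control clones, at least 2026-fold lower (0 reads in knockout and 6193 in control clones). INSM1, a zinc finger factor of neuroendocrine cells, had 43.4, 37.5 and 47.9 in knockout clones, against 2194, 3208 and 3093 in control clones (log2 fold change -6.01, SE 0.21, adjusted p = 3e-05). It was lower but not silent, whereas NEUROD4 and ST18 had no read in any of the 9 knockout libraries. BHLHE22, a bHLH repressor of cortical and retinal neurons, had 24.6, 2.28 and 3.31 in knockout clones, against 1989, 3624 and 4054 in control clones (log2 fold change -8.85, SE 0.75, adjusted p = 0.000898). In the other direction, HES1, a Notch target that represses proneural genes, had 114, 177 and 87.9 in knockout clones, against 0, 3.63 and 5.79 in control clones (log2 fold change 5.28, SE 0.74, adjusted p = 0.00649). ID3, which sequesters E proteins, had 2766, 6316 and 5439 in knockout clones, against 254, 1082 and 1060.1 in control clones (log2 fold change 2.78, SE 0.61, adjusted p = 0.0302). Its adjusted p was between 0.0294 and 0.0892 without 1 clone, past the threshold only without control clone 3 or knockout clone 12. The E proteins TCF4 and TCF3, with which NEUROD1 can pair, did not pass the threshold. For both, every knockout clone lay below every control clone. TCF4 had 2087, 2126 and 1232 in knockout clones, against 2694, 3957 and 4597 in control clones (adjusted p = 0.0586). TCF3 had 2115, 2052 and 2358 in knockout clones, against 3066, 2463 and 3401 in control clones (adjusted p = 0.12). The number of lower members was 11 or 12 without any 1 clone, and that of higher members 2 without control clone 3 or knockout clone 12 and 1 otherwise.

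Of the 12 falls of smallest p, NEUROD4, ST18 and INSM1 are the factors described above, and the others include membrane and vesicle proteins. SYT4, a synaptotagmin of dense-core and synaptic vesicles, had a lowest, median and highest library of 0, 0.973 and 2.05 in knockout clones, against 3487, 3989 and 5021 in control clones. KCNJ6, an inward rectifier potassium channel, had a lowest, median and highest library of 0, 0 and 0.973 in knockout clones, against 1718, 1946 and 3039 in control clones. ATP2B2, a calcium pump of the plasma membrane, had 0.360, 0 and 0.336 in knockout clones, against 762, 923 and 885 in control clones, with 2 reads in knockout and 7727 in control clones, a ratio of 3791 (95% counting interval 1049 to 31310). The 2 groups of libraries did not overlap for any of the 12 falls, and their adjusted p lay between 2.03e-05 and 3.2e-05. Choice by smallest p favours both, and libraries did not overlap in 20.6% of all genes tested. NTRK3, the receptor of neurotrophin-3, had 0, 0.338 and 0 in knockout clones, against 1278, 1621 and 847 in control clones, with 1 read in knockout and 11214 in control clones, a ratio of 11000 (95% counting interval 1975 to 434700). CA10, a carbonic anhydrase-related protein that binds neurexins, had 1.03, 0.338 and 0.628 in knockout clones, against 812, 1383 and 1009 in control clones (log2 fold change -9.52, SE 0.32, adjusted p = 2.67e-05). SEZ6L, RPH3A, STMN2 and GRIK3 complete the 12, and in each the highest knockout library was under the lowest control library.

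**Figure D2:**
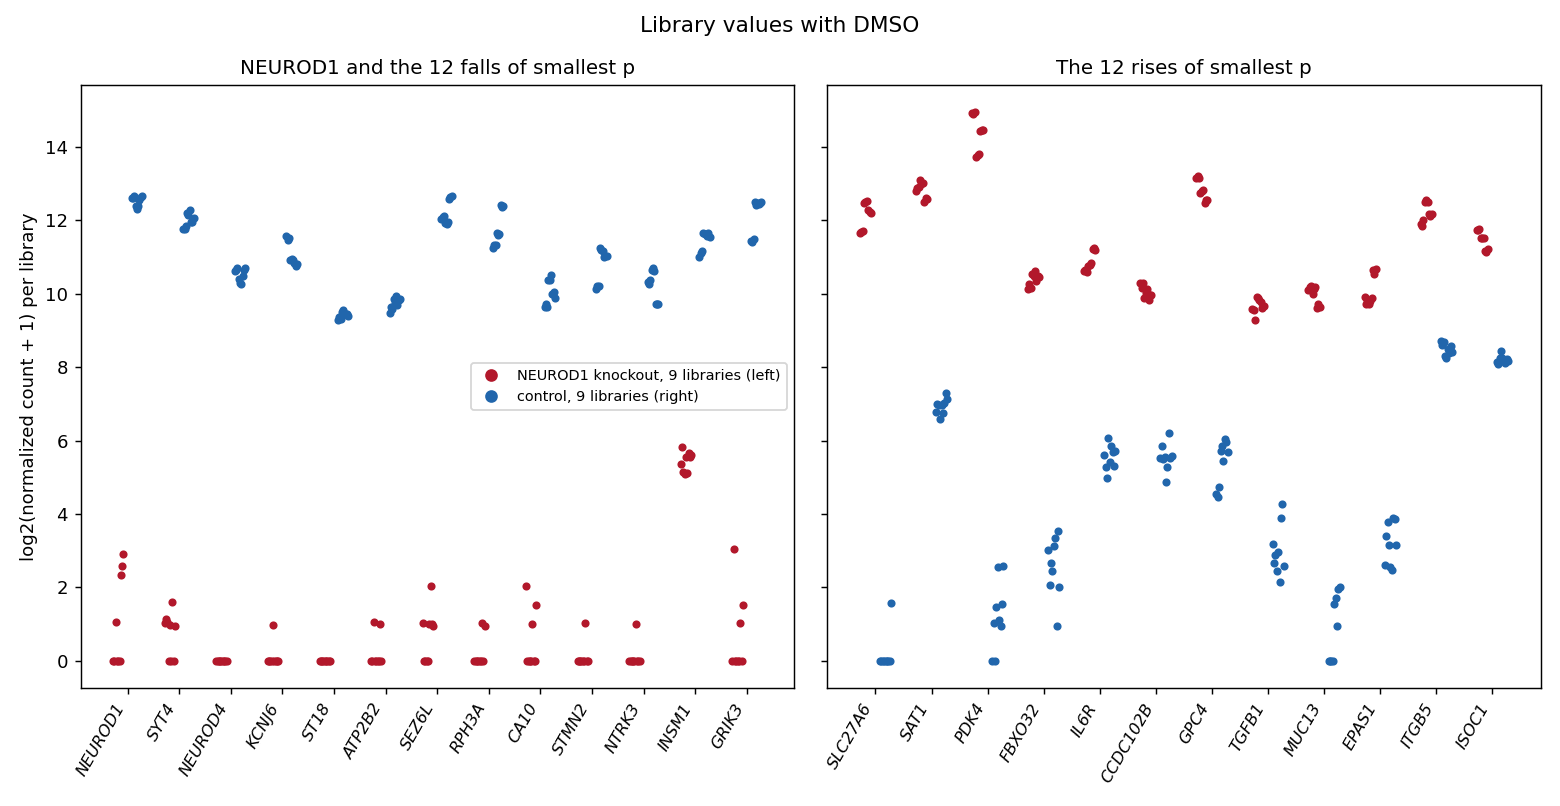
Values of single libraries, log2(normalized count + 1), of NEUROD1 with the 12 falls (left) and of the 12 rises (right) of smallest p; red dots are the 9 knockout libraries and blue dots, to their right, the 9 control libraries. The groups do not overlap in any of the 25 genes, and the knockout libraries of INSM1 stand above those of the other falls.

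Neuronal splicing and RNA-binding factors fell in 9 of 27 genes and rose in 2 (33.3% lower and 7.41% higher, median log2 fold change -0.90). Of all genes tested, 6.23% were lower and 6.32% higher. CELF3, a neuronal regulator of splicing, had 1.09, 2.65 and 0.650 in knockout clones, against 352, 483 and 702 in control clones (log2 fold change -7.94, SE 0.39, adjusted p = 0.000125). ELAVL4, a neuronal protein that stabilizes AU-rich mRNAs, had 0, 0 and 0 in knockout clones, against 127, 322 and 182 in control clones, at least 623-fold lower (0 reads in knockout and 1905 in control clones). SRRM4, which drives inclusion of neuronal microexons, had 3.09, 12.0 and 59.9 in knockout clones, against 1018, 1502 and 1595 in control clones (log2 fold change -6.85, SE 1.03, adjusted p = 0.00812). The fall was deepest in clone 12 for SRRM4, and no knockout library of the 3 genes reached the lowest control library. CELF4, a paralog of CELF3, had 10.5, 1.30 and 1.64 in knockout clones, against 168, 286 and 195 in control clones (log2 fold change -5.93, SE 0.72, adjusted p = 0.00378). MBNL2, a muscleblind-like splicing factor, was the firmer of the 2 rises, with 938, 1432 and 1812 in knockout clones, against 303, 324 and 342 in control clones (log2 fold change 2.06, SE 0.25, adjusted p = 0.00381). The general repressor of neuronal exons, PTBP1, had 6827, 6028 and 5879.6 in knockout clones, against 7188, 6987 and 7697 in control clones and did not pass (adjusted p = 0.281). The count of lower genes was 5 without control clone 10, 6 or 7 without another control clone, and 8 or 9 without 1 knockout clone.

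Microtubule and growth cone genes fell in 12 of 28 and rose in 0 (42.9% lower, against 6.23% of all genes, median log2 fold change -1.13). GAP43, a protein of growing axon tips, had 5.67, 18.5 and 18.8 in knockout clones, against 3113, 3522 and 3179.8 in control clones (log2 fold change -7.96, SE 0.46, adjusted p = 0.000188). DCX, the doublecortin of migrating neurons, had 3.17, 3.96 and 5.96 in knockout clones, against 392, 353 and 1071 in control clones (log2 fold change -6.88, SE 0.52, adjusted p = 0.000559). KIF1A, a kinesin that carries synaptic vesicle precursors, had 31.7, 241 and 53.8 in knockout clones, against 4881, 6418 and 9060.3 in control clones (log2 fold change -6.47, SE 0.72, adjusted p = 0.00266). STMN2, which regulates microtubule dynamics in axons, had 0, 0 and 0.342 in knockout clones, against 1164, 2364 and 2084 in control clones, with 1 read in knockout and 17007 in control clones, a ratio of 16690 (95% counting interval 2995 to 659200). In these 4 genes, the highest knockout clone stood far below the lowest control clone. The general members moved less. TUBA1A, an alpha tubulin, had 10447, 17352 and 26879 in knockout clones, against 27644, 30764 and 41469 in control clones (adjusted p = 0.132). STMN1, the ubiquitous stathmin, had 8989.7, 6902 and 13218 in knockout clones, against 13984, 16001 and 16213 in control clones (adjusted p = 0.106). The count of lower genes was 5 without control clone 10 or 13 and 7 without control clone 3, and 10 to 13 without 1 knockout clone.

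Receptors of fast and slow neurotransmission fell in 9 of 23 genes and rose in 0 (39.1% lower, against 6.23% of all genes). Their median log2 fold change was -1.32. GRIK3, a kainate receptor subunit, had 2.42, 0 and 0.971 in knockout clones, against 2797, 5656 and 5670.3 in control clones (log2 fold change -11.51, SE 0.41, adjusted p = 3.2e-05). GABBR2, a subunit of the metabotropic GABA-B receptor, had 23.4, 4.57 and 6.61 in knockout clones, against 1701, 1494 and 1598 in control clones (log2 fold change -7.35, SE 0.54, adjusted p = 0.000509). Subunits of both glutamate and GABA receptors were thus among the falls. GRIA2, the AMPA receptor subunit that limits calcium entry, had 2.18, 10.1 and 8.36 in knockout clones, against 591, 865 and 1158 in control clones (log2 fold change -7.03, SE 0.54, adjusted p = 0.0006). Its paralog GRIA4 had 445, 416 and 719 in knockout clones, against 659, 811 and 550.0 in control clones with overlapping groups (adjusted p = 0.401). A further paralog, GRIA3, chosen after its values were seen, was near 0 in all clones but knockout clones 12 and 2-1, with 882, 1.28 and 429 in knockout clones, against 0, 0.325 and 0 in control clones, with 3711 reads in knockout and 1 in control clones, a ratio of 3782 (95% counting interval 678 to 149400) and an adjusted p of 0.108. The count of lower genes was 8 to 11 without any 1 clone.

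Of the 10 neuroendocrine markers, 6 fell and 0 rose (60% lower, against 6.23% of all genes, median log2 fold change -2.53). CHGA, the granule protein chromogranin A, had a lowest, median and highest library of 7.05, 15.4 and 35.9 in knockout clones, against 2678, 3377 and 4471 in control clones. SYP, the vesicle protein synaptophysin, had 68.0, 138 and 91.2 in knockout clones, against 2496, 2296 and 2148 in control clones (log2 fold change -4.59, SE 0.26, adjusted p = 0.000187). SCG3, a granin that anchors hormone cargo, had 20.3, 30 and 80.9 in knockout clones, against 3099, 3694 and 3218 in control clones (log2 fold change -6.47, SE 0.47, adjusted p = 0.000491). In CHGA, SYP and SCG3 the groups thus stood far apart, but other markers overlapped or missed the threshold. NCAM1, a neural adhesion molecule, had 4394, 2341 and 4453 in knockout clones, against 8500, 10489 and 6032 in control clones (adjusted p = 0.055). SCG2, the precursor of secretoneurin, had 2832, 932 and 8677 in knockout clones, against 14901, 6391 and 4216 in control clones (adjusted p = 0.339), with clone 2-1 above 2 of the control clones. Without 1 clone, 5 or 6 of the 10 were counted.

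Surface proteins and drug targets of small-cell lung cancer fell in 5 of 23 genes and rose in 2 (21.7% and 8.70%). Over all genes tested, 6.23% fell and 6.32% rose. SEZ6, a neuronal membrane protein, had 20.9, 11.5 and 1.93 in knockout clones, against 1993, 5562 and 5277 in control clones (log2 fold change -8.78, SE 0.80, adjusted p = 0.00121). L1CAM, an axonal adhesion molecule, had 2.97, 46.4 and 5.62 in knockout clones, against 477, 1291 and 2618 in control clones (log2 fold change -6.88, SE 1.04, adjusted p = 0.00817). SSTR2, a somatostatin receptor, had 10.8, 34.9 and 123 in knockout clones, against 667, 668 and 1846 in control clones (log2 fold change -4.65, SE 0.86, adjusted p = 0.0166). B4GALNT1, which makes gangliosides, had 587, 671 and 499.9 in knockout clones, against 1089, 1909 and 1877 in control clones (log2 fold change -1.44, SE 0.25, adjusted p = 0.0138). These groups did not overlap, but without some clones SSTR2 and B4GALNT1 lost the call (adjusted p of up to 0.061 without control clone 13 and up to 0.0627 without control clone 10). CDK7, a kinase of transcription initiation and the cell cycle, had 718, 835 and 666 in knockout clones, against 361, 361 and 371 in control clones (log2 fold change 1.02, SE 0.15, adjusted p = 0.00767). TOP2A, a topoisomerase of dividing cells, had 17917, 20685 and 31061 in knockout clones, against 10481, 11033 and 14158 in control clones (log2 fold change 0.94, SE 0.24, adjusted p = 0.0469), lost without any clone other than knockout clone 12 (adjusted p 0.067 to 0.161), with FPKM and with edgeR on the reads (adjusted p = 0.0539 in both). PARP1, a DNA repair enzyme, had 9902, 9668 and 8202 in knockout clones, against 10444, 9809.8 and 11045 in control clones and did not pass (adjusted p = 0.438). Without control clone 10 the count of lower genes was 2, without control clone 13 it was 3, and without any other clone it was 5 to 7.

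**Figure D3:**
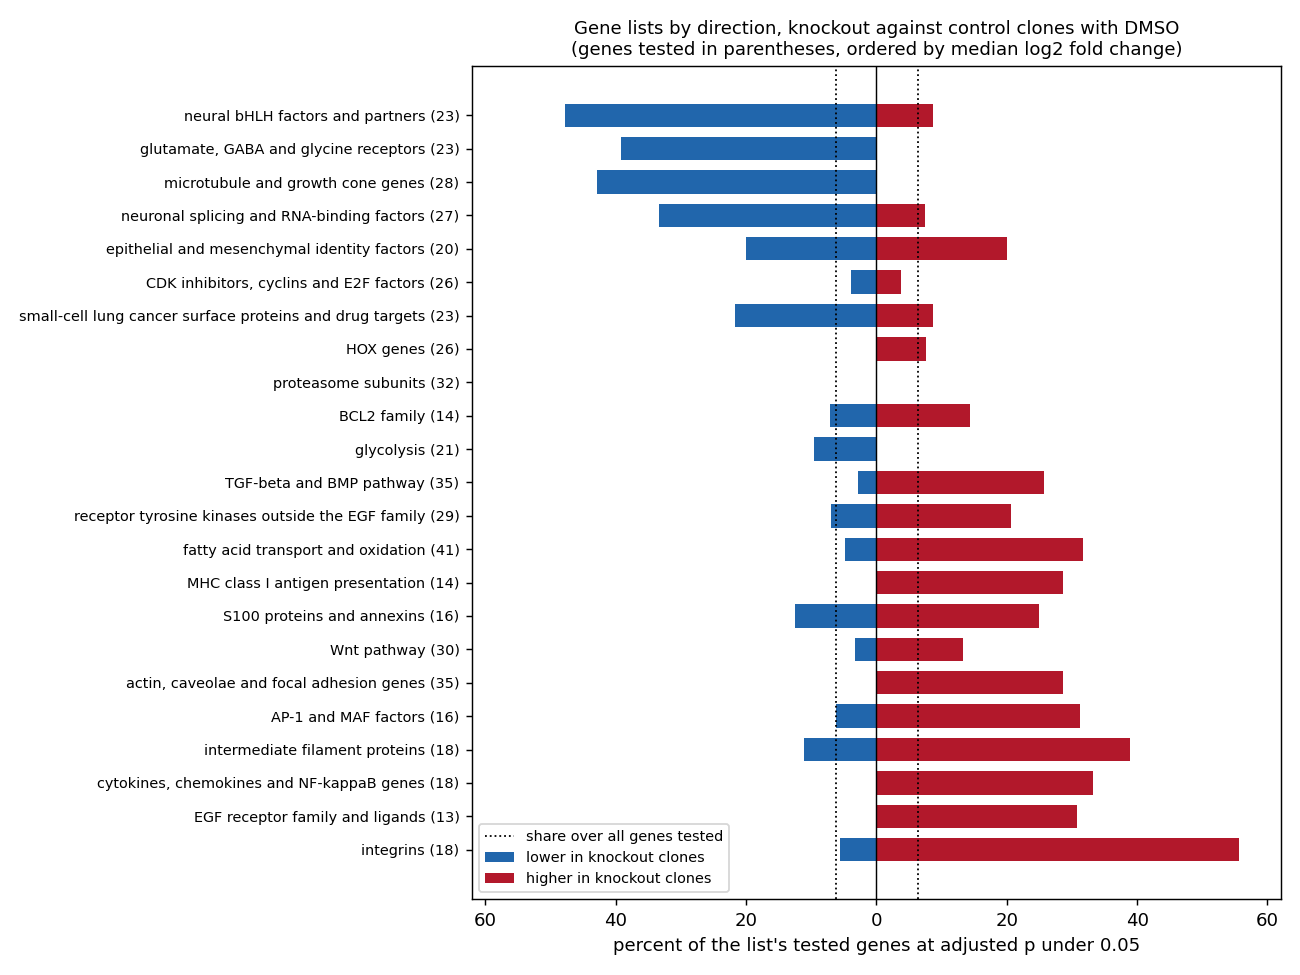
Share of the tested genes of each list (percent, x axis) that passed the threshold lower (blue, left) or higher (red, right) in knockout clones; the number of genes tested is in parentheses and dotted lines mark 6.23% and 6.32%, the shares over all genes tested. Neural lists lie on the left, integrins have the longest bar on the right, and proteasome subunits have none.

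The 12 rises of smallest p include genes of metabolism, secreted signals and the cell surface. SLC27A6, a fatty acid transporter, had a lowest, median and highest library of 3262, 4799 and 5915 in knockout clones, against 0, 0 and 2.00 in control clones. SAT1, which acetylates polyamines, had 7440, 8442 and 6072 in knockout clones, against 120.2, 109 and 142 in control clones (log2 fold change 5.87, SE 0.18, adjusted p = 2.28e-05). FBXO32, the ubiquitin ligase subunit atrogin-1, had 1165, 1505 and 1382 in knockout clones, against 5.21, 7.14 and 4.85 in control clones (log2 fold change 7.82, SE 0.29, adjusted p = 3.52e-05). None of the 12 overlapped between the groups of libraries, and their log2 fold changes ran from 3.28 to 13.13. Their adjusted p was at most 0.000155. These genes too were chosen by smallest p, and 20.6% of all genes tested did not overlap. IL6R, the receptor of interleukin-6, had 1570.5, 1769.9 and 2391 in knockout clones, against 39.0, 55.3 and 47.0 in control clones (log2 fold change 5.32, SE 0.23, adjusted p = 8.08e-05). GPC4, a heparan sulfate proteoglycan of the cell surface, had 9228, 7104 and 5901 in knockout clones, against 23.0, 50.2 and 59.3 in control clones (log2 fold change 7.45, SE 0.37, adjusted p = 0.000125). EPAS1, the hypoxia-inducible factor HIF-2α, had 902, 894 and 1575 in knockout clones, against 9.13, 5.82 and 11.8 in control clones (log2 fold change 6.87, SE 0.35, adjusted p = 0.000131). In the last 3 genes the knockout clones differed by less than 2-fold. MUC13, a transmembrane mucin, had 1154, 1097 and 809 in knockout clones, against 0, 1.41 and 2.27 in control clones. CCDC102B, a centrosomal linker protein, had 1219, 1037 and 973 in knockout clones, against 48.6, 37.4 and 54.9 in control clones. ISOC1, an isochorismatase domain protein, had 3433, 2954 and 2324 in knockout clones, against 286, 313 and 287 in control clones and was the smallest of the 12 rises.

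TGF-beta and BMP genes rose in 9 of 35 and fell in 1, or 25.7% and 2.86%, against 6.32% and 6.23% of all genes. The median log2 fold change was 0.15. TGFB1, a ligand, had 719, 939.7 and 827 in knockout clones, against 6.61, 4.90 and 12.4 in control clones (log2 fold change 6.68, SE 0.33, adjusted p = 0.000125). BMP6, a ligand of the BMP branch, had 79.4, 251 and 104 in knockout clones, against 0.693, 5.36 and 1.57 in control clones (log2 fold change 5.56, SE 0.61, adjusted p = 0.00259). LTBP1, which stores latent TGF-beta in the matrix, had 1318, 848 and 1099.9 in knockout clones, against 22.4, 34.2 and 114 in control clones (log2 fold change 4.58, SE 0.58, adjusted p = 0.00431). The rise thus included ligands and a matrix partner. The ligand TGFB3 went down, with 310.2, 672 and 502 in knockout clones, against 2918, 1831 and 1094 in control clones (log2 fold change -1.94, SE 0.42, adjusted p = 0.0286), a call lost without control clone 10, control clone 3, knockout clone 12 or knockout clone 2-1 (adjusted p 0.0595 to 0.0995). SMAD5, a signal transducer, had 2049, 1502 and 1029 in knockout clones, against 2306, 2249.5 and 2588 in control clones (adjusted p = 0.126). The count of higher genes was 6 without control clone 10 or 13, and 7 to 10 without any other clone.

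EGF receptor ligands and regulators rose in 4 of 13 genes and fell in 0 (30.8% higher, against 6.32% of all genes). TGFA, a ligand, had 14482, 5467 and 27.1 in knockout clones, against 0, 0 and 0.306 in control clones, with 56508 reads in knockout and 1 in control clones, a ratio of 57590 (95% counting interval 10330 to 2275000) and an adjusted p of 0.0264, and its call held without knockout clone 2-1 alone (adjusted p = 0.000195; 0.0536 to 0.091 without another clone). ERRFI1, an inhibitor of the receptor, had 3372, 2064 and 10175 in knockout clones, against 500.3, 389 and 388 in control clones (log2 fold change 3.29, SE 0.54, adjusted p = 0.0111). LRIG3, a membrane regulator of receptor kinases, had 1497, 1430.2 and 1334 in knockout clones, against 324, 489 and 390.5 in control clones (log2 fold change 1.84, SE 0.18, adjusted p = 0.00169). The receptor itself was unevenly present. EGFR, chosen after its values were seen, had 3344, 44.0 and 0.314 in knockout clones, against 0, 0.382 and 0 in control clones, with 9241 reads in knockout and 1 in control clones, a ratio of 9417 (95% counting interval 1690 to 372000) and an adjusted p of 0.204, so clones 12 and 15 were above every control clone and clone 2-1 was not. ERBB4, a receptor of neuregulins, had 191, 248 and 704 in knockout clones, against 947, 1082 and 1409.7 in control clones (adjusted p = 0.0546). The count of higher genes was 2 without any 1 control clone and 3 or 4 without 1 knockout clone.

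Of 29 other receptor tyrosine kinases, 6 rose and 2 fell (20.7% and 6.90%, against 6.32% and 6.23% of all genes). MET, the receptor of hepatocyte growth factor, had 7067, 3492 and 176 in knockout clones, against 3.14, 1.89 and 1.30 in control clones (log2 fold change 9.20, SE 1.29, adjusted p = 0.00649). EPHB3, an ephrin receptor, had 520.2, 1087 and 193 in knockout clones, against 3.87, 1.14 and 2.62 in control clones (log2 fold change 7.37, SE 0.70, adjusted p = 0.00139). AXL, a receptor of GAS6, had 71.4, 350.3 and 45.8 in knockout clones, against 0, 0.325 and 0 in control clones, with 1416 reads in knockout and 1 in control clones, a ratio of 1443 (95% counting interval 259 to 57030). The 3 receptors were near 0 in all control clones and differed in level among the knockout clones, with MET lowest in clone 2-1. EPHA10, an ephrin receptor without kinase activity, had 22.2, 19.1 and 21.8 in knockout clones, against 133, 237 and 228 in control clones (log2 fold change -3.15, SE 0.31, adjusted p = 0.00165). EPHA3, a receptor of ephrin-A ligands, had 11078, 18470 and 10907 in knockout clones, against 9393, 11107 and 12729 in control clones and did not pass (adjusted p = 0.561). The number of higher genes was 4 without control clone 10 and 6 or 7 without any other clone, and that of lower genes was 4 without knockout clone 2-1 and 2 or 3 otherwise. In the Wnt list 4 of 30 genes rose and 1 fell (13.3% and 3.33%). TCF7, a nuclear effector, had 1151, 1843 and 1356 in knockout clones, against 37.7, 22.1 and 51.6 in control clones (log2 fold change 5.36, SE 0.37, adjusted p = 0.000362). FZD5, a receptor, had 632, 339 and 454 in knockout clones, against 128, 98.7 and 118 in control clones (log2 fold change 2.00, SE 0.27, adjusted p = 0.0055). The receptor FZD7 had 1114, 1358 and 1275 in knockout clones, against 3697, 3421 and 4078 in control clones (log2 fold change -1.58, SE 0.14, adjusted p = 0.000962). WNT7B, a ligand, had 149, 33.9 and 16.9 in knockout clones, against 0, 0 and 0 in control clones, at least 190.2-fold higher (560 reads in knockout and 0 in control clones). Without 1 clone, 3 to 6 genes of the Wnt list were higher.

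Integrins had the largest share of rises among the lists of pathways and families, marker lists left aside. It was 10 of 18 (55.6%, against 6.32% of all genes), with 1 fall and a median log2 fold change of 2.30. ITGA3, a laminin receptor subunit, had 4402, 2875 and 1429 in knockout clones, against 6.23, 14 and 24.4 in control clones (log2 fold change 7.59, SE 0.58, adjusted p = 0.000586). ITGB5, a subunit of a vitronectin receptor, had 3870.4, 5899 and 4580.5 in knockout clones, against 408, 326 and 355 in control clones (log2 fold change 3.70, SE 0.19, adjusted p = 0.000131). ITGA6, a subunit of epithelial laminin receptors, had 27.7, 132 and 22.1 in knockout clones, against 0, 1.48 and 1.67 in control clones (log2 fold change 4.89, SE 0.74, adjusted p = 0.00849) and did not pass with FPKM (adjusted p = 0.0641). Widely expressed subunits overlapped. ITGB1, the common beta subunit, had 12479, 10185 and 13178 in knockout clones, against 8876, 9248 and 10853 in control clones (adjusted p = 0.254). ITGAV, an alpha subunit of vitronectin receptors, had 3357, 4891 and 11817 in knockout clones, against 3678, 3714 and 3880.5 in control clones (adjusted p = 0.402), with clone 2-1 alone well above the controls for ITGAV. ITGA4, a subunit known from leukocytes, had 779, 1344 and 1088 in knockout clones, against 2200.5, 2489.6 and 2068 in control clones (log2 fold change -1.11, SE 0.22, adjusted p = 0.0199) and lost its call without any 1 control clone (adjusted p 0.0568 to 0.0878). Without 1 clone 4 to 8 integrins were higher: 4 without control clone 10, 5 without control clone 13 or knockout clone 15, and 6 without control clone 3.

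Actin, caveolae and focal adhesion genes rose in 10 of 35 genes and fell in 0 (28.6% higher, against 6.32% of all genes). CAV1, the main coat protein of caveolae, had 2012, 1677 and 5218 in knockout clones, against 403, 274 and 112 in control clones (log2 fold change 3.49, SE 0.59, adjusted p = 0.0116). CAV2, its partner, had 62, 16.3 and 70.2 in knockout clones, against 0, 0 and 0 in control clones, at least 147-fold higher (433 reads in knockout and 0 in control clones). PTRF (cavin-1), needed to form caveolae, had 2954, 3013 and 3662 in knockout clones, against 909.5, 527 and 349 in control clones (log2 fold change 2.53, SE 0.33, adjusted p = 0.00517). The parts of caveolae thus rose together in all 3 clones. ACTB, a cytoplasmic actin, had 79322, 71508 and 56195 in knockout clones, against 75614, 67446 and 73093 in control clones (adjusted p = 0.83). FLNA, an actin crosslinker, had 48131, 21970 and 28326 in knockout clones, against 37727, 25838 and 34675 in control clones (adjusted p = 0.933). The count of higher genes was 3, 4 and 5 without control clones 10, 13 and 3, and 7 to 9 without 1 knockout clone. S100 proteins and annexins rose in 4 of 16 genes and fell in 2 (25.0% and 12.5%, against 6.32% and 6.23% of all genes). S100A11, a calcium-binding partner of annexins, had 892, 1239 and 571 in knockout clones, against 23.7, 10.7 and 9.62 in control clones (log2 fold change 5.91, SE 0.44, adjusted p = 0.000532). S100A4, a member known from motile cells, had 7.93, 14.4 and 28.8 in knockout clones, against 749, 711 and 239 in control clones (log2 fold change -5.13, SE 0.66, adjusted p = 0.00453). Without control clone 10 or 13, 2 of that list were higher.

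Of 18 intermediate filament genes, 7 rose and 2 fell (38.9% and 11.1%, against 6.32% and 6.23% of all genes). KRT75, a keratin of hair follicle and basal epithelium, had 7152, 3071 and 534 in knockout clones, against 0.693, 1.44 and 0 in control clones (log2 fold change 10.58, SE 0.91, adjusted p = 0.00094). KRT5, a basal keratin, had 1303, 1833 and 73.7 in knockout clones, against 0, 0 and 0 in control clones. Over pooled reads it was at least 3207-fold higher (9441 in knockout and 0 in control clones). KRT18, a keratin of simple epithelium, had 17.7, 59.3 and 13.6 in knockout clones, against 0, 0.763 and 1.32 in control clones (log2 fold change 4.14, SE 0.66, adjusted p = 0.00984). The 3 keratins were at or near 0 in all control clones, and clone 2-1 was the lowest knockout clone for each. KRT15, a basal keratin chosen after its values were seen, had 875, 1749.9 and 21.3 in knockout clones, against 5.22, 21.5 and 18.1 in control clones (adjusted p = 0.114). INA, the neuronal filament alpha-internexin, had 41.9, 13.5 and 5.31 in knockout clones, against 262, 454 and 628 in control clones (log2 fold change -4.78, SE 0.70, adjusted p = 0.00739). NES, the filament nestin of neural progenitors, had 2.95, 5.23 and 5.19 in knockout clones, against 26.1, 65.3 and 66.1 in control clones (log2 fold change -3.26, SE 0.47, adjusted p = 0.00729). VIM, the mesenchymal filament vimentin, had 4072, 322 and 49832 in knockout clones, against 4313, 1294 and 962 in control clones, so the highest and the lowest of the 6 clones were both knockout clones (adjusted p = 0.704). The count of higher genes was 4 without control clone 10 or knockout clone 15 and 5 or 7 without another clone.

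Of 20 factors of epithelial and mesenchymal identity, 4 rose and 4 fell (20% each, against 6.32% and 6.23% of all genes). TP63, the master factor of basal epithelium, had 20645, 4972 and 130.2 in knockout clones, against 0.340, 0 and 0.333 in control clones, with 72096 reads in knockout and 2 in control clones, a ratio of 36740 (95% counting interval 10170 to 303300) and an adjusted p of 0.00876. ZEB2, a repressor of E-cadherin that also acts in neurons, had 630.2, 616 and 1302 in knockout clones, against 3849, 3215 and 3351 in control clones (log2 fold change -2.12, SE 0.30, adjusted p = 0.00656). SOX11, a factor of neuronal precursors, had 205, 202 and 259 in knockout clones, against 550.0, 528 and 775 in control clones (log2 fold change -1.47, SE 0.22, adjusted p = 0.00753). ZEB2 and SOX11 were lower in all 3 knockout clones than in any control clone. ZEB1, the paralog of ZEB2, had 2483, 1287 and 1519.7 in knockout clones, against 1780.3, 1629 and 2186 in control clones with overlapping groups (adjusted p = 0.805). PRRX1, a mesenchymal homeobox factor, had 2809.5, 1094 and 4662 in knockout clones, against 3999, 2776 and 2242 in control clones (adjusted p = 0.792). The count of higher genes was 2 without control clone 10, control clone 13 or knockout clone 12, and 3 or 4 without another; the count of lower genes was 2 without control clone 10 or knockout clone 15, and 3 without another. Of the 6 basal markers in the table, 3 rose (TP63, KRT5 and KRT14). NGFR, a neurotrophin receptor of basal cells and neurons, had 9035, 31631 and 5727 in knockout clones, against 198, 2195 and 2225 in control clones (adjusted p = 0.0769). S100A2, also a basal marker, had 636, 1265 and 1412 in knockout clones, against 10644, 2512 and 898 in control clones (adjusted p = 0.319). The summed basal markers spanned 7381 to 41726 in the knockout and 3142 to 10848 in the control clones.

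AP-1 and MAF factors rose in 5 of 16 and fell in 1 (31.2% and 6.25%, against 6.32% and 6.23% of all genes). Their median log2 fold change was 1.07. FOS, the immediate early partner of JUN, had 201, 125 and 135 in knockout clones, against 8.02, 7.92 and 10 in control clones (log2 fold change 4.05, SE 0.32, adjusted p = 0.000652). FOSB, a related factor, had 46.0, 101 and 94.4 in knockout clones, against 8.02, 10.9 and 15.7 in control clones (log2 fold change 2.67, SE 0.43, adjusted p = 0.0105). JUN itself had 1235, 1323 and 1591 in knockout clones, against 2109, 1875 and 1528 in control clones with overlapping groups (adjusted p = 0.183). Without 1 clone, 2 to 5 of the list were higher, 2 without control clone 10 and 3 without control clone 13 or knockout clone 12. Cytokine and NF-kappaB genes rose in 6 of 18 genes and fell in 0 (33.3% higher; median log2 fold change 1.54). TNFRSF10B, a death receptor of TRAIL, had 1781, 1261 and 1887 in knockout clones, against 6.33, 2.04 and 7.95 in control clones (log2 fold change 8.19, SE 0.45, adjusted p = 0.000167). TNFAIP2, an inducible gene of TNF signalling, had 57.8, 233 and 72.1 in knockout clones, against 0.340, 0 and 0.322 in control clones, with 1092 reads in knockout and 2 in control clones, a ratio of 556 (95% counting interval 154 to 4600). ICAM1, an adhesion ligand of leukocytes, had 75.1, 149 and 32.9 in knockout clones, against 7.57, 1.06 and 7.03 in control clones (log2 fold change 4.03, SE 0.75, adjusted p = 0.0167). These genes were low in the control clones. NFKB1, the precursor of an NF-kappaB subunit, had 1335, 1517 and 1174 in knockout clones, against 994, 976 and 957 in control clones (adjusted p = 0.0863). Without control clone 13 the list held 3 rises, and without another clone 4 to 9. Of 14 genes of MHC class I presentation 4 rose and 0 fell (28.6% higher). HLA-E, a non-classical class I molecule, had 615, 485 and 671 in knockout clones, against 182, 103 and 86.8 in control clones (log2 fold change 2.31, SE 0.31, adjusted p = 0.0055). TAPBP, the peptide loading factor tapasin, had 247, 245 and 299 in knockout clones, against 103, 92.4 and 83.3 in control clones (log2 fold change 1.5, SE 0.20, adjusted p = 0.00575). B2M, the light chain of class I, had 3855, 3286 and 3677 in knockout clones, against 2739.8, 2198 and 2494 in control clones (log2 fold change 0.54, SE 0.14, adjusted p = 0.0461). It lost the call without any 1 clone (adjusted p 0.0598 to 0.181). Without 1 control clone, 2 genes of the MHC class I list were higher.

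Fatty acid transport and oxidation rose in 13 of 41 genes and fell in 2 (31.7% and 4.88%, against 6.32% and 6.23% of all genes). PDK4, a kinase that turns off pyruvate dehydrogenase, had a lowest, median and highest library of 13596, 22524 and 31566 in knockout clones, against 0, 1.14 and 5.00 in control clones. ANGPTL4, an inhibitor of lipoprotein lipase, had 56.1, 113 and 25.2 in knockout clones, against 0, 0.296 and 1.32 in control clones (log2 fold change 5.35, SE 0.63, adjusted p = 0.00342). ACADL, a long-chain acyl-CoA dehydrogenase, had 26.1, 23.6 and 162 in knockout clones, against 0, 0 and 1.59 in control clones (log2 fold change 5.12, SE 0.85, adjusted p = 0.0111). In these 3 genes the groups did not overlap. ACSL6, an acyl-CoA synthetase abundant in brain, had 1.40, 16.4 and 5.65 in knockout clones, against 957, 287 and 242 in control clones (log2 fold change -6.08, SE 0.84, adjusted p = 0.00617). The other fall was HADH, a dehydrogenase of mitochondrial beta-oxidation, with 713, 943 and 603 in knockout clones, against 1196, 1326 and 1296 in control clones (log2 fold change -0.78, SE 0.19, adjusted p = 0.0399). That call was lost without any clone other than knockout clone 15 (adjusted p 0.0765 to 0.147). HADHA, a subunit of the trifunctional protein, had 3575, 6433 and 6065 in knockout clones, against 4190.3, 3147 and 3388 in control clones (adjusted p = 0.213). ACAA2, a thiolase, had 2587, 2935 and 1672 in knockout clones, against 1782, 1997 and 2093 in control clones (adjusted p = 0.516). The count of higher genes was 7 without control clone 10, 8 without control clone 3, and 9 to 13 without any other clone.

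Other lists held few calls, and the shares over all genes were 6.32% higher and 6.23% lower. Proteasome subunits rose in 0 and fell in 0 of 32 genes. PSMD2, a subunit of the regulatory particle, had 8387, 8327 and 6762 in knockout clones, against 9578, 9192 and 8925 in control clones (adjusted p = 0.287). Glycolysis genes rose in 0 and fell in 2 of 21 (9.52% lower). HK1 and ENO2 fell. ENO2 lost its call without any clone other than control clone 3 (adjusted p 0.0564 to 0.137). The call of HK1 was lost without any clone other than knockout clone 12 (adjusted p 0.058 to 0.088). The number of lower genes, not always these, was 2 without knockout clone 12, 1 without control clone 3 and 0 without any other clone. GAPDH, a dehydrogenase of the pathway, had 87659, 88858 and 71767 in knockout clones, against 49933, 71518 and 80971 in control clones (adjusted p = 0.404). Of 26 CDK inhibitors, cyclins and E2F factors, 1 rose and 1 fell (3.85% each). E2F1, an activator of S phase genes, had 663, 743 and 641 in knockout clones, against 1519.7, 1463 and 1283 in control clones (log2 fold change -1.06, SE 0.14, adjusted p = 0.00486). CDK4, a kinase of the D-type cyclins, had 4297, 4193 and 3776 in knockout clones, against 2854, 4286 and 4303 in control clones (adjusted p = 0.728). Of 14 genes of the BCL2 family 2 rose and 1 fell (14.3% and 7.14%). BOK, a BAX-like effector, had 67.8, 84.4 and 137 in knockout clones, against 7.37, 5.51 and 18.8 in control clones (log2 fold change 3.30, SE 0.50, adjusted p = 0.0083). HRK, a neuronal BH3-only protein, had 8.76, 9.55 and 7.51 in knockout clones, against 135, 274 and 249 in control clones (log2 fold change -4.57, SE 0.35, adjusted p = 0.00061). MCL1, a survival protein, had 5569.6, 3674 and 3539.7 in knockout clones, against 4475, 4049.5 and 4150 in control clones (adjusted p = 0.969). Of 26 HOX genes, HOXA13 and HOXC13 rose (7.69%) and 0 fell, and both calls were lost without control clone 10 (adjusted p = 0.107 and 0.147), control clone 3 (0.0968 and 0.0912) or knockout clone 15 (0.0669 and 0.123). The list then held 0, 1 and 0 higher genes.

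A few genes behaved as switches, with every clone mean at 100 or more in one genotype and at 5 or less in the other. There were 22 such genes on in knockout clones, all protein-coding, and 54 off, 49 of them protein-coding. By length-scaled level, PDK4 led the first set, with 417.5 ± 140.9 FPKM in knockout and 0.0556 ± 0.0366 FPKM in control clones (SD, n = 3 each). FBN2, a fibrillin of microfibrils, followed with 172.5 ± 156.7 and 0.00111 ± 0.00192 FPKM, and TIMP1, an inhibitor of matrix proteases, with 145.2 ± 165.2 and 0.438 ± 0.184 FPKM. PDK4 was even among the knockout clones, whereas FBN2 and TIMP1 had an SD close to or above their mean. The off set was led by OAS1, an interferon-inducible oligoadenylate synthetase, at 0.290 ± 0.285 FPKM in knockout and 860.6 ± 532.7 FPKM in control clones. STMN2 and RPH3A followed. LINC01088, an antisense transcript listed among the off genes, had 2.86, 3.64 and 4.58 in knockout clones, against 221, 144 and 874 in control clones (log2 fold change -6.39, SE 0.70, adjusted p = 0.00249). No source used here says whether counting was stranded, so LINC01088 and overlapping genes on the other strand may share reads. In the JQ1 libraries of the same clones the same levels were met by 9 of the 22 and 21 of the 54 genes. Without replicate 1 of knockout clone 12 with JQ1, they were met by 8 and 31. That library held 31825795 reads, against 18046122 and 15007292 in replicates 2 and 3.

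The knockout clones were less alike than the control clones. Over all genes tested, the median range among the 3 clone means was 0.65 on the log2 scale for knockout and 0.45 for control clones, and the range was at least 3, or 8-fold, in 811 genes for knockout and in 345 for control clones. In 196 of the 811 genes clone 2-1 stood below the other 2 knockout clones, and in 160 clone 12 stood above the other 2. Among genes past the threshold, the widest range was that of TGFA, followed by KRT14, COL12A1 and TP63. KRT14, a basal keratin, had 5886, 275 and 17.4 in knockout clones, against 0, 0 and 0 in control clones. Its pooled reads were at least 5772-fold higher (16992 in knockout and 0 in control clones), with most of them from clone 12. COL12A1, a fibril-associated collagen, had 38089, 149 and 7030.2 in knockout clones, against 2.10, 8.53 and 19.1 in control clones (log2 fold change 8.70, SE 1.93, adjusted p = 0.0309). AKR1C3, a steroid-converting reductase, had 2951, 2163 and 20.2 in knockout clones, against 0, 0 and 0.333 in control clones, with 14793 reads in knockout and 1 in control clones, a ratio of 15070 (95% counting interval 2705 to 595500). Clone 2-1 had the least of KRT14 and AKR1C3, but clone 15 had the least COL12A1. Without 1 clone their adjusted p ran from 0.00622 to 0.107, from 0.00373 to 0.101 and from 0.00016 to 0.0809, and the calls of all 3 were lost without any 1 control clone. KRT14 was also lost with edgeR on the reads (adjusted p = 0.0907). CDH5, the cadherin of endothelium, had 257, 55.8 and 0.992 in knockout clones, against 8438, 5049.5 and 4366 in control clones (log2 fold change -7.54, SE 1.61, adjusted p = 0.0275), lost without any control clone (adjusted p 0.0783 to 0.0903), without knockout clone 15 (0.0616) and with edgeR (0.0542). Among genes past the threshold, control clones differed most in POSTN, a matrix protein, with 9315, 343 and 833 in knockout clones, against 0, 7.17 and 64.9 in control clones (log2 fold change 7.43, SE 1.74, adjusted p = 0.037). CD5, a surface molecule of lymphocytes, had 0, 0.324 and 0 in knockout clones, against 21.5, 104 and 900.5 in control clones, with 1 read in knockout and 3186 in control clones, a ratio of 3126 (95% counting interval 561 to 123500). Both calls were lost without control clone 10 (adjusted p = 0.114 and 0.0611), and that of POSTN without every other clone but control clone 13 and with edgeR (adjusted p = 0.0724).

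**Figure D4:**
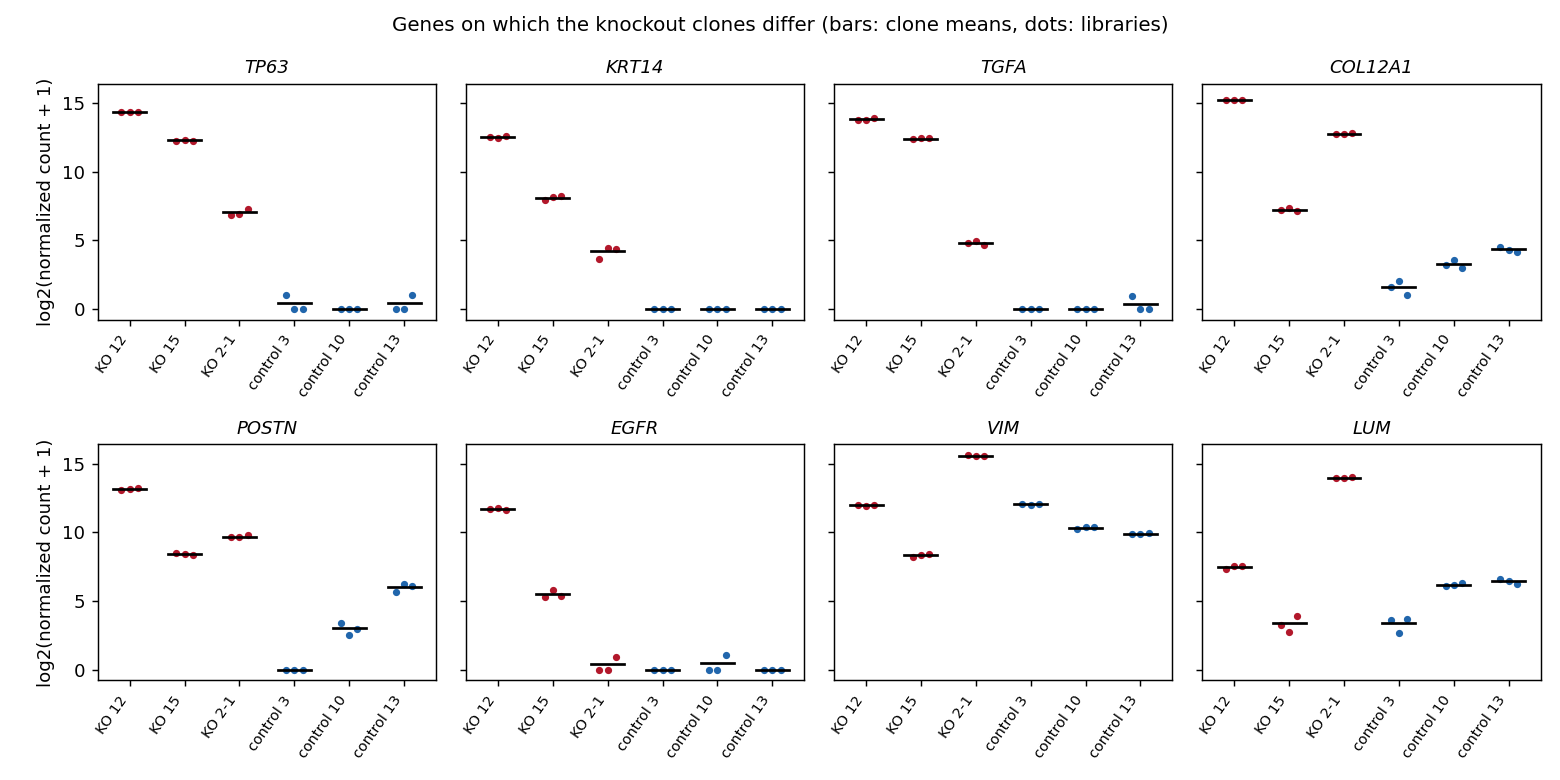
Clone means (black bars) and single libraries (dots; red knockout, blue control) of 8 genes on the log2(normalized count + 1) scale. Libraries of a clone lie close together, TP63, KRT14, TGFA and EGFR step down over knockout clones 12, 15 and 2-1, and VIM and LUM are highest in knockout clone 2-1.

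Large differences that missed the threshold were common: 152 genes at least 8-fold higher and 73 at least 8-fold lower did not pass, and in 151 of these genes the clone means did not overlap. The genes named next were chosen after their values were seen. CDH3, the epithelial P-cadherin, had 3936, 2986 and 5.40 in knockout clones, against 0, 0.296 and 0.322 in control clones (adjusted p = 0.0814). IGFBP3, a binding protein of insulin-like growth factors, had 12901, 13631 and 15.8 in knockout clones, against 14, 8.83 and 9.53 in control clones (log2 fold change 6.99, SE 2.47, adjusted p = 0.121). NNMT, a nicotinamide methyltransferase, had 2929.9, 424 and 6.53 in knockout clones, against 0.709, 0 and 0 in control clones (adjusted p = 0.0587). In each, clones 12 and 15 were far above the controls and clone 2-1 was close to them. S100A6, a calcium-binding protein, had 0.403, 0.958 and 14 in knockout clones, against 12538, 208 and 52.1 in control clones (log2 fold change -7.33, SE 2.02, adjusted p = 0.0616), and here the control clones spanned a wide range. LUM, the matrix proteoglycan lumican, was far higher in clone 2-1 than in any other clone, with 178, 9.47 and 16124 in knockout clones, against 9.40, 71.8 and 85.8 in control clones (adjusted p = 0.507). The summed markers of fibroblasts and endothelium were 26369 to 54369 in the knockout and 7430 to 17492 in the control clones. Of the 5 tested, 1 rose and 1 fell (20% each, against 6.32% and 6.23% of all genes). The fall was that of the endothelial CDH5, described above, so the sum joins markers that moved in opposite directions. COL1A2, a chain of type I collagen, was the only one of them to rise, with 29471, 15711 and 17395 in knockout clones, against 4520.3, 1523 and 4595 in control clones (log2 fold change 2.66, SE 0.47, adjusted p = 0.014). COL3A1, a fibrillar collagen, had 4848, 9491 and 11148 in knockout clones, against 4236, 303 and 164 in control clones (adjusted p = 0.0834).

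Calls were spread over all chromosomes, with a share of 6.70% on chromosome 19 and 6.73% on chromosome 16 at the low end and 18.6% on chromosome 18 at the high end. The median difference of expressed genes from the mean of the control clones was away from 0 on single chromosomes in single clones. In knockout clone 12 it was -0.43 on chromosome 2 and -0.45 on chromosome 22 (log2), and 0.29 on chromosome 6. In knockout clone 2-1 it was -0.42 on chromosome 18, -0.39 on chromosome 22 and 0.25 on chromosome 17, and in knockout clone 15 it was -0.29 on chromosome 6. Control clones showed the same kind of shift, with -0.29 on chromosome 12 in clone 3 and -0.28 on chromosome 11 in clone 13. No chromosome was shifted by 0.2 or more in the same direction in all 3 knockout clones. The part of these shifts in the calls was not tested.

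**Figure D5:**
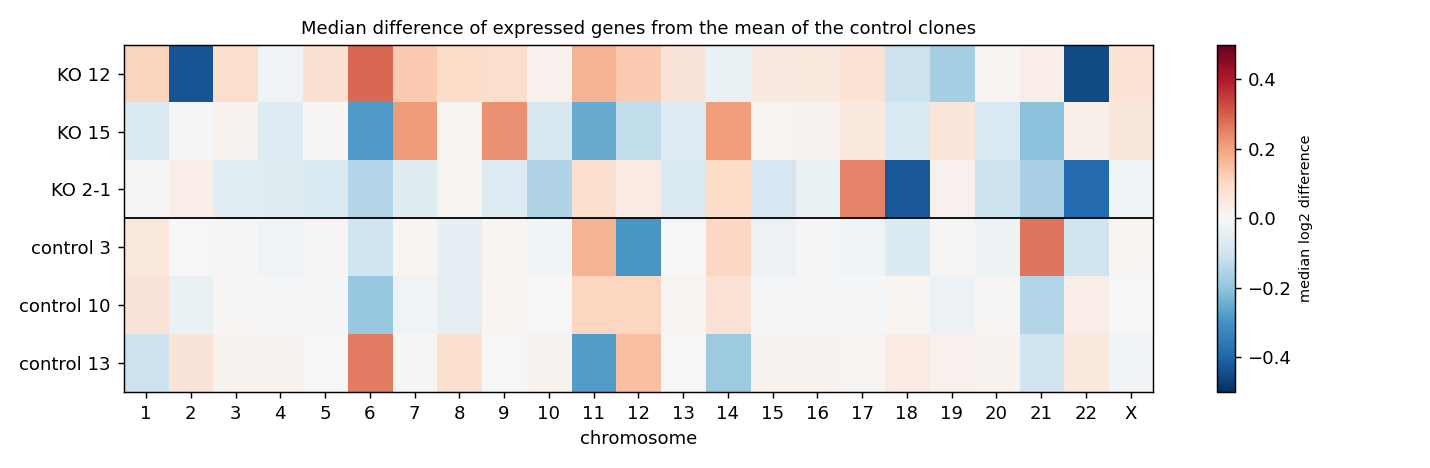
Median log2 difference of expressed genes from the mean of the 3 control clones, per chromosome (columns) and clone (rows; knockout clones above the line, control clones below it), blue lower and red higher. Knockout clones 12 and 2-1 are both low on chromosome 22, at -0.45 and -0.39, and knockout clone 15 is at 0.03.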

How the data were processed

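RNA was sequenced from 18 DMSO libraries of 6 H446 clones; the labels call the 3 libraries of a clone biological replicates, and nothing else says that they came from separate cultures. The submitters' processing notes name cutadapt, STAR, RSEM and the build hg19; no source used here gives their versions. The authors deposited a signal table of 19014 genes, read counts divided by 1 DESeq2 size factor per library, per the file name, and an FPKM table of 57820 genes, the values RSEM scales by length and depth, used here for levels between genes. Dividing the deposited counts by the smallest step of each library gave whole reads for 100% of values within 1e-06; no source used here states how the authors chose the 19014 genes.

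A gene was tested if 9 or more of the 36 libraries reached 10 normalized counts (15819 genes), with limma 3.58.1 (R 4.3.3) on clone means of log2(normalized count + 1), a scale that understates the change of low genes, with a trend in the prior variance and Benjamini-Hochberg adjustment over all genes tested. The spread is that between clones. Alternatives were edgeR 4.0.16 and DESeq2 1.42.0 on reads summed per clone, FPKM, other pseudocounts, filters and scalings, single libraries, and leaving out clones or libraries. Intervals on read ratios (95%) and floors of 3 reads cover counting error only, on reads pooled over the clones of a genotype. Gene types and chromosomes came from GENCODE 29 (97.0% of the genes tested matched) and promoter sequences from RefSeq. Among the falls and rises of smallest p, the promoters of ST18, STMN2, SEZ6L, INSM1 and FBXO32 were not searched for E-box words. Tables and plots were made with Python 3.11.15, pandas 2.3.3 and matplotlib 3.10.9.

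Genes named are NEUROD1, the 12 rises and 12 falls of smallest p with a mean of at least 50 normalized counts, up to 4 members a list and direction with the largest change, up to 2 other members a list of highest mean, the 8 and 4 genes with the widest range among knockout and control clones, and the 6 switch genes of highest FPKM in each direction; others are said to be chosen after their values were seen. The comparison and the lists were chosen with earlier results of these data known. In each direction a list's share is set beside that of all genes, and no test of the list was made. A few genes that the rule names are not reported here.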

Additional observations from a re-analysis of the deposited data

How the results depend on the processing

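The number of genes past the threshold moved by more than 1.5 times under 6 alternatives. DESeq2 on the whole reads called 3330 genes (1786 higher and 1544 lower), against 1839 with edgeR; the cause was not tested. Single libraries in place of clone means gave 7856 (3999 and 3857), and with the replicate number as a block 7465 (3805 and 3660); both treat libraries of 1 clone as independent. The replicate numbers do not pair the samples: deviations of libraries that share a number correlated at -0.038 to 0.088 over 45 pairs. Leaving out 1 clone gave 906 to 2033 genes in all, 444 to 1013 higher and 462 to 1020 lower; without control clone 3, 10 or 13 there were 1216 (591 and 625), 906 (444 and 462) and 1119 (561 and 558). Fewer clones in the fit lower the degrees of freedom; why control clones weigh more than knockout clones was not tested. The other alternatives gave 1614 to 2067 genes, among them FPKM (1820) and a filter of 10 normalized counts in 3 of the 18 DMSO libraries (2067), which was chosen after seeing the data. No call changed sign under any alternative. Of the 138 named genes past the threshold, NEUROD1 not counted, 110 stayed so under every alternative that leaves out no sample. The number was 127 without any single library or replicate number, and 91 without any single clone. An alternative that gave a gene no adjusted p was passed over for that gene. Genes with few reads in one genotype have only bounds or wide counting intervals at this depth.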
